A study of Mus musculus with 6 samples.

Results

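Sele, Ptgs2 and Adm are genes that activated vascular endothelium is known to transcribe. They were taken by name, with earlier results of these data known, together with the adhesion genes Selp, Icam1 and Vcam1. Of these 6 genes, 4 had a transcript in the table of 8969 protein-coding genes, and Selp and Icam1 had none under either their symbol or their Ensembl identifier. The hearts came from male mice and were kept beating outside the body by Langendorff perfusion, in which fluid enters the coronary vessels from the aorta. In the Sham group (n = 3) contraction was not interrupted, and in the I/R group (ischaemia and reperfusion, n = 3) contraction was arrested for 30 min with Tomas cardioplegia, a solution that halts the heartbeat, before reperfusion for 1 h. Not given in the sources used here were strain, age, the perfusate, how long Sham hearts were perfused and whether a library, called a heart below, held RNA of 1 animal. The labels number the libraries of a group as biological replicates, and the p-values measure the spread between these 6 libraries.

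Endothelial cells that sense cytokines such as tumour necrosis factor or interleukin 1 switch on adhesion molecules through the transcription factor NF-kB. The selectins, E-selectin (Sele) and P-selectin (Selp), slow passing leukocytes so that they roll, and ICAM-1 (Icam1) and VCAM-1 (Vcam1) then bind leukocyte integrins and hold them firmly. E-selectin is made only after new transcription and is nearly restricted to endothelium, which makes its mRNA a common readout of activation. Ptgs2 encodes the inducible cyclooxygenase COX-2, which starts prostaglandin synthesis, and Adm encodes adrenomedullin, a secreted vasodilator peptide that is induced by hypoxia and by inflammatory cytokines. Ptgs2 and Adm are also made by other cells of the heart, and RNA of whole hearts does not show which cells made it.

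Expression is given in FPKM (fragments scaled by the length of the transcript and the size of the library), added up over the listed transcripts of a gene, with the reads recovered from it. For protein-coding genes the FPKM rested on totals of 7233171 to 9902397 reads per heart, of which listed transcripts held 36.8% to 39.9%, so how much of a gene its listed transcripts cover is not known. Of 12114 genes tested with limma, 0% had an adjusted p under 0.05, and 8.44% had an unadjusted one (4.23% higher and 4.21% lower in I/R). The 3 I/R hearts lay all above the 3 Sham hearts for 7.1% of genes and all below for 6.57%. Of the 5041 protein-coding genes among them, 2765 were higher in I/R and 2276 lower. Hearts did not overlap for 445 (higher) and 258 (lower), and 173 (higher) and 84 (lower) had an unadjusted p under 0.05. Shares of all genes given below are over all 12114, long non-coding RNAs included, and differ from those of protein-coding genes. Each difference is the I/R mean minus the Sham mean of log2(FPKM + 1) ± SE, which understates differences at values near or below 1 FPKM, and group values are means ± SD with n = 3.

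The sequences before the starts of the 3 leading genes are shown to mark where short motifs match them. They are the 250 bases before the RefSeq start (GRCm38.p6, all on the plus strand, 5′ to 3′), and capitals mark matches on either strand to any of 8 short motifs.
Sele, chr1:164047984-164048233: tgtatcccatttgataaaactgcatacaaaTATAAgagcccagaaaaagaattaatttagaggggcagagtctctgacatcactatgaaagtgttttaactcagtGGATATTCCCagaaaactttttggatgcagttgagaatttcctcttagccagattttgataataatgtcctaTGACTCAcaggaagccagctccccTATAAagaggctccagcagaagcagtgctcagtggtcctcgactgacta
Ptgs2, chr1:150099781-150100030: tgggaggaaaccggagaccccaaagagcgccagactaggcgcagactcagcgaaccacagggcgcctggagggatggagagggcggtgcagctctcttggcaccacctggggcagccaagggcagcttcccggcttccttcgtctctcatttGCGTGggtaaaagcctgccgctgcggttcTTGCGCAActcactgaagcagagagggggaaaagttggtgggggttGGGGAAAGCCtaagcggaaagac
Adm, chr7:110627407-110627656: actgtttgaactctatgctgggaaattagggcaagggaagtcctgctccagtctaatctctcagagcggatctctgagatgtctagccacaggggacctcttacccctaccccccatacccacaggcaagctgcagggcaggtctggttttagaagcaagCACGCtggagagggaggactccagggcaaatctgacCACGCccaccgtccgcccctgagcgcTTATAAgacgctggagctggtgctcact

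The letters GGGNNNNNCC, a loose form of the site bound by NF-kB, matched 145 bases before the start of Sele (GGATATTCCC, on the minus strand) and 23 bases before that of Ptgs2 (GGGGAAAGCC). Of all 32851 such windows 45.8% held a match, so its presence is common. The AP-1 letters TGANTCA matched once in Sele, 73 bases before the start (TGACTCA, 6.75% of windows). The C/EBP-like letters TTGCNNAA matched in Ptgs2, 69 bases before the start (TTGCGCAA, 9.56% of windows). Of the hypoxia core motifs, GCGTG (28.2% of windows) matched in Ptgs2 at 98 bases and on the minus strand of Adm at 90 and 54 bases, and ACGTG (16.6%) matched in none of the 3. TATAA (22.8%) matched in Sele at 49 and 220 bases and in Adm at 27 bases, overlapping a match on its minus strand. The CRE core ACGTCA (6.47%) and the E-box CACGTG (6.02%) had no match in these windows. Bases after the RefSeq start or further before it were not searched, so a motif without a match here can lie close by. A match describes letters and was not tested for binding.

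Comparing I/R hearts with Sham hearts asks how the endothelial genes stood after the arrest. Sele and Adm were higher in every I/R heart than in any Sham heart (2 of 4, against 7.1% of all genes), by 4.04 and 1.5 times between the group means. Ptgs2 was 2.32 times higher between the means with overlapping hearts. The only listed transcript of Vcam1 was near the limit of detection, and how much of the gene it covers is not known. All 4 differences were above 0, as were 49.7% of those of all genes tested. Vcam1 reached the filter of 0.5 FPKM over all hearts only through I/R (means 0.400 in Sham and 1.17 in I/R). Its direction is therefore no support. No member passed the test over all genes (0 of 4, limma, adjusted p from 0.420 to 0.668). Unadjusted, Sele and Adm were under 0.05 with higher values in I/R (2 of 4, against 4.23% of all genes). The members were chosen with earlier results of these data known. Their shares here, and their ranks below, are descriptions and no independent support.

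**Figure D1:**
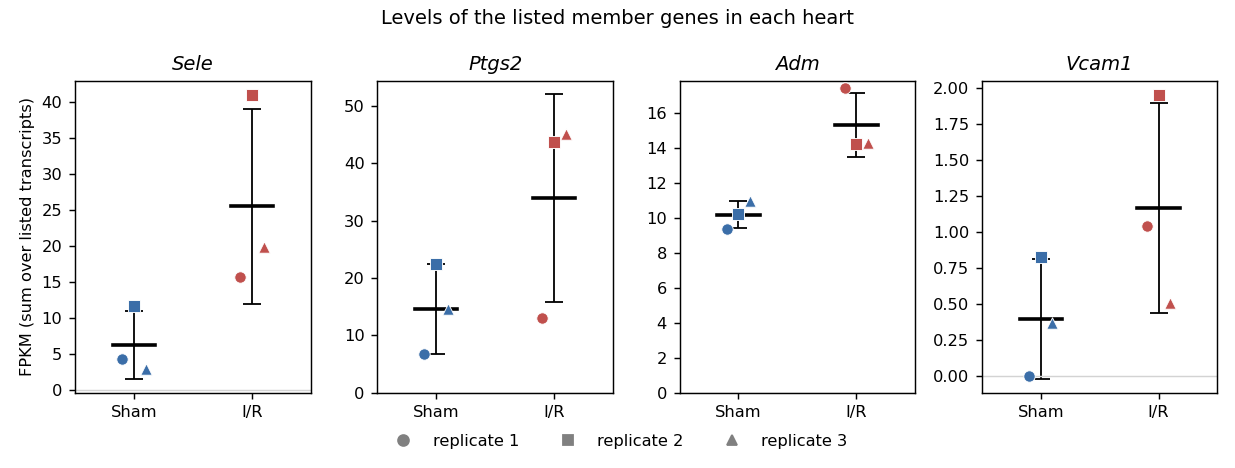
FPKM of Sele, Ptgs2, Adm and Vcam1 (vertical axes, each on its own scale) in Sham and I/R hearts, with 1 point per heart shaped by replicate, the mean as a bar and the SD as whiskers. The I/R hearts lie above the Sham hearts for Sele and Adm and overlap them for Ptgs2 and Vcam1, where 1 Sham heart is listed at 0.

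Sele (ENSMUSG00000026582, chromosome 1, 164048234 to 164057677, plus strand) has 1 listed transcript. It was at 4.33, 11.7 and 2.94 FPKM in Sham replicates 1, 2 and 3, whereas the I/R replicates, in the same order, had 15.8, 41.0 and 19.9 FPKM. These values rest on 125, 329 and 62 reads for the Sham hearts and on 353, 1062 and 454 for the I/R hearts. The groups did not overlap, and the lowest I/R heart was 1.35 times the highest Sham heart. Hearts of 1 group differed widely, by 3.98 times from lowest to highest in Sham and by 2.60 times in I/R. The difference was 1.93 ± 0.51 (limma, unadjusted p = 0.00704, adjusted p = 0.420, 95% interval of the difference 0.72 to 3.13). On this scale, which understates differences of genes with low values, it was the 3rd largest increase among the 5041 protein-coding genes tested. Its p was the 45th smallest. Replicate 2 gave the highest value of both groups, and leaving out that heart of Sham gave 2.42 and of I/R gave 1.54.

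Ptgs2 (ENSMUSG00000032487, chromosome 1, 150100031 to 150108227, plus strand) has 2 listed transcripts. Their summed FPKM was 6.85, 22.4 and 14.6 in Sham replicates 1, 2 and 3, against 13, 43.7 and 45.1 over the I/R replicates. The reads were 222, 744 and 357 for the Sham hearts and 411, 1457 and 1276 for the I/R hearts. I/R replicates 2 and 3 were above every Sham heart, whereas I/R replicate 1 lay below Sham replicates 2 and 3. The difference was 1.11 ± 0.57 (limma, unadjusted p = 0.0921, adjusted p = 0.648), with a 95% interval of −0.24 to 2.46 that includes no difference. It was 1.68 without I/R replicate 1 and 0.68 without Sham replicate 1, the lowest Sham heart.

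The sum over the transcripts of Ptgs2 gave weight to few reads. The longer transcript (ENSMUST00000035065, 4453 bases by the FPKM steps) was at 4.88, 16.9 and 10.8 FPKM for the Sham hearts and 11.9, 36.2 and 35.9 for the I/R hearts. The short one (ENSMUST00000190784, 358 bases) had 7, 19 and 10 reads for the Sham hearts and 3, 24 and 26 for the I/R hearts. These were 2.55% to 3.15% of the gene's reads in Sham and 0.730% to 2.04% in I/R, yet they gave 24.6% to 28.8% of its FPKM in Sham and 8.38% to 20.6% in I/R. With the longer transcript alone the ratio of group means was 2.58 and the difference 1.28 ± 0.54 (limma, unadjusted p = 0.0515, adjusted p = 0.590). With limma voom on the recovered reads it was 1.37 ± 0.48 (unadjusted p = 0.0163, adjusted p = 0.477).

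**Figure D2:**
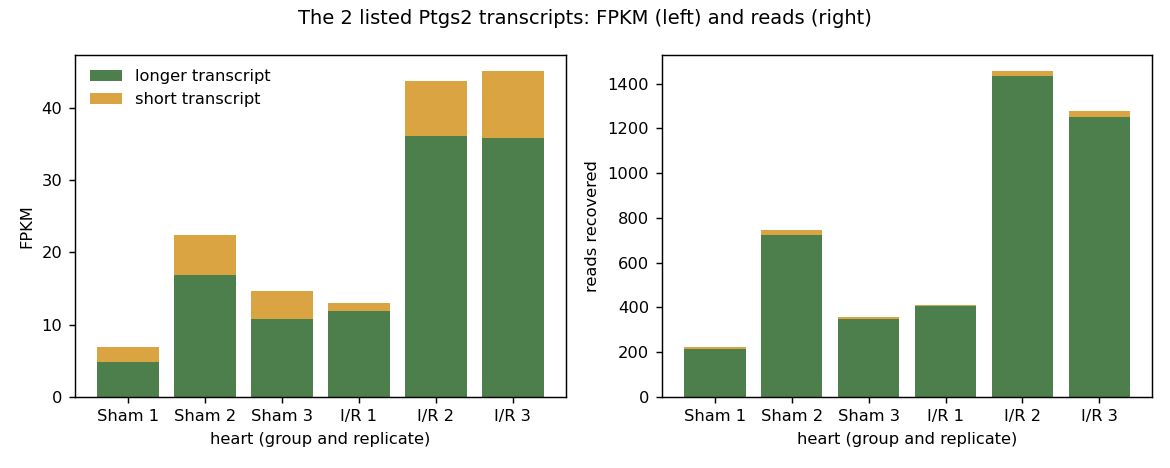
FPKM (left) and recovered reads (right) of the 2 listed Ptgs2 transcripts, stacked, in each of the 6 hearts. The short transcript is a visible part of the FPKM (8.38% to 28.8%) and a thin part of the reads (0.730% to 3.15%).

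Adm (ENSMUSG00000030790, chromosome 7, 110627661 to 110629820, plus strand) differed least between hearts of 1 group. Sham replicates 1, 2 and 3 had 9.37, 10.2 and 10.9 FPKM, and the I/R replicates had 17.4, 14.2 and 14.2 FPKM. The reads were 129, 137 and 110 for the Sham hearts and 186, 176 and 155 for the I/R hearts. The groups did not overlap, with the lowest I/R heart at 1.30 times the highest Sham heart and a spread within groups of 1.17 times in Sham and 1.22 times in I/R. The difference was 0.54 ± 0.15 (limma, unadjusted p = 0.00969, adjusted p = 0.450, 95% interval 0.18 to 0.90). Among protein-coding genes it had the 61st smallest p, and by size it was the 191st largest increase. I/R replicate 1, the highest I/R heart for Adm, was the lowest for Sele and Ptgs2.

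Of the adhesion genes beyond Sele, Vcam1 (ENSMUSG00000027962, chromosome 3, 116109949 to 116129688, minus strand) alone had a row, a transcript of 749 bases by the FPKM steps. Sham replicates 1, 2 and 3 had 0, 0.831 and 0.369 FPKM, and the I/R replicates had 1.04, 1.95 and 0.512 FPKM. These values rest on 0, 6 and 2 reads for the Sham hearts and 6, 13 and 3 for the I/R hearts, and the hearts overlap. The difference was 0.62 ± 0.34 (limma, unadjusted p = 0.108, adjusted p = 0.668), with a 95% interval of −0.18 to 1.42. It depended on how low values were treated, from 0.62 to 1.68 with a pseudocount of 0.1 and 1.93 with voom on the reads. It was 0.40 without the Sham heart at 0 and 0.37 without I/R replicate 2.

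The order of the listed genes by FPKM differed between the groups. In Sham the means were 14.6 ± 7.77 for Ptgs2, 10.2 ± 0.785 for Adm, 6.33 ± 4.71 for Sele and 0.400 ± 0.416 for Vcam1. In I/R they were 34.0 ± 18.2 for Ptgs2, 25.6 ± 13.5 for Sele, 15.3 ± 1.83 for Adm and 1.17 ± 0.728 for Vcam1. Neighbours in these orders overlapped over the hearts of a group (Ptgs2 and Adm, and Adm and Sele, in Sham, and Ptgs2 and Sele, and Sele and Adm, in I/R). The listed Vcam1 transcript, which may not stand for the whole gene, lay below the other genes in all 6 hearts.

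Although Icam1 and Selp had no row, long non-coding RNAs (lncRNAs) listed at these loci had reads. These were looked for within 60000 bases of the 6 genes after the member values were known, and 10 were listed. Gm47079 (ENSMUSG00000110790, chromosome 9, 21028307 to 21032357, minus strand) overlaps 508 bases at the end of Icam1, which RefSeq places on the plus strand at 21015940 to 21028814. It was at 28.9, 81.3 and 39.0 FPKM in Sham replicates 1, 2 and 3, against 97.6, 152 and 74.1 for the I/R hearts, from 281, 768 and 275 reads and 753, 1372 and 607 reads. Only Sham replicate 2 overlapped the I/R hearts, and the difference was 1.17 ± 0.41 (limma, unadjusted p = 0.0250, adjusted p = 0.513, 0.86 to 1.59 over all alternatives). Without strand, reads of Icam1 and of Gm47079 in the shared bases cannot be told apart, and how the counting treated strand was not given in the sources used here.

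More reads were assigned to a lncRNA at the start of Vcam1 than to the listed Vcam1 transcript. Gm43109 (ENSMUSG00000104653, chromosome 3, 116128451 to 116141016, plus strand) overlaps the first 1238 bases of Vcam1 on the opposite strand, where reads of the 2 genes cannot be told apart without strand. It was at 65.2, 119 and 129 FPKM in Sham replicates 1, 2 and 3, against 133, 203 and 132 for the I/R hearts, from 576 reads in all for Sham and 854 for I/R. The groups did not overlap but nearly touched, and the difference was 0.61 ± 0.29 (limma, unadjusted p = 0.0765, adjusted p = 0.623, 0.30 to 0.79 over all alternatives). FPKM of lncRNAs were scaled by totals of their own (2025331 to 2792592 reads) and are not on the scale of protein-coding genes.

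At Selp, which RefSeq places at 164115264 to 164150026 on chromosome 1 downstream of Sele, 2 lncRNAs of the minus strand were listed. Gm16587 (ENSMUSG00000090081, 164143432 to 164146366) lies within the span of Selp and had 3, 5 and 0 reads for the Sham hearts and 4, 52 and 10 for I/R replicates 1, 2 and 3. Its 52 reads in I/R replicate 2 stand far from the other hearts, and the groups overlap (1.99 ± 0.78, limma, unadjusted p = 0.0392, adjusted p = 0.563, 3.25 with a pseudocount of 0.1 and 1.16 without I/R replicate 2). Gm16548 (ENSMUSG00000086593, 164148591 to 164152217) overlaps the last 1436 bases of Selp, with the same limit on strand, and had 5, 4 and 3 reads for the Sham hearts and 6, 21 and 15 for the I/R hearts. Its FPKM did not overlap between the groups (1.22 ± 0.34, limma, unadjusted p = 0.00872, adjusted p = 0.442, 0.96 to 1.68 over all alternatives).

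**Figure D3:**
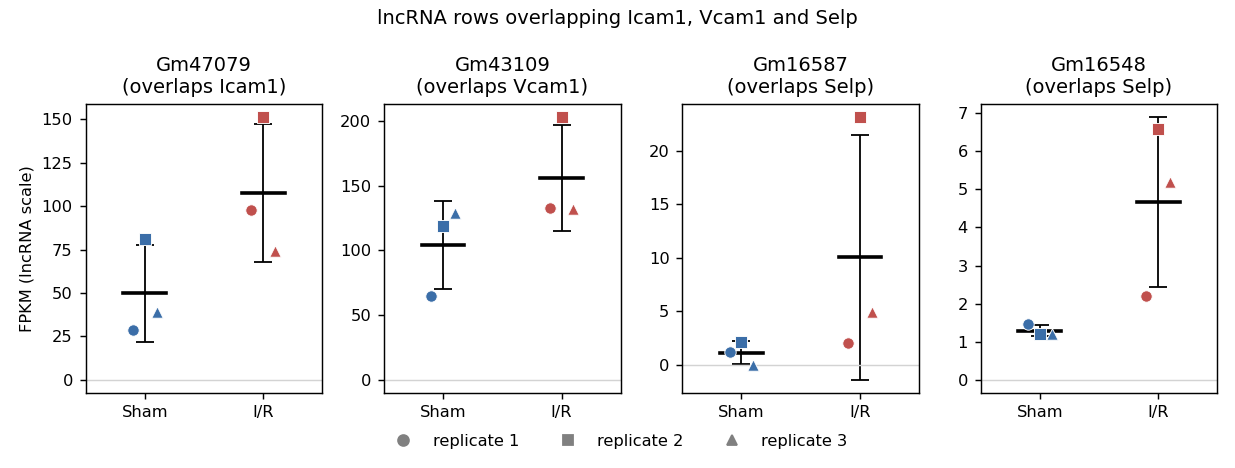
FPKM, scaled to lncRNA totals, of the lncRNA rows whose spans overlap Icam1 (Gm47079), Vcam1 (Gm43109) and Selp (Gm16587, Gm16548) in Sham and I/R hearts, with 1 point per heart, means as bars and SD as whiskers. I/R replicate 2 is the highest heart in all 4 panels, and Gm16587 rests on 52 reads there.

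The lncRNAs beside Ptgs2 and Adm had few reads. Ptgs2os, which starts 68 bases from Ptgs2 and runs the other way, had 15 reads in all for Sham and 31 for I/R (0.60 ± 0.34, limma, unadjusted p = 0.126, adjusted p = 0.695, 0.24 to 1.95 over all alternatives). Ptgs2os2, also called lincRNA-Cox2 and known as a regulator of inflammatory genes in macrophages, lies 50816 bases away and had 2 and 7 reads. Gm28863, whose span holds all of Adm on the opposite strand, had 13 reads for Sham and 3 for I/R, opposite in direction to Adm (−1.16 ± 0.60, limma, unadjusted p = 0.0972, adjusted p = 0.658, −2.28 to −0.60 over all alternatives). The remaining lncRNAs were Gm26592 near Icam1, with 6 and 17 reads, and Gm26544 (2 and 5) and 5330425B07Rik near Vcam1. 5330425B07Rik was listed above 0 in I/R replicate 1 alone (1.32 FPKM), which does not fix its number of reads.

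Other adhesion genes of the endothelial side gave no common direction. Of 19 genes in this list, which includes Selp, Icam1 and Vcam1, 7 had a row and were tested, 3 higher and 4 lower in I/R, with a median of −0.12 (0.03 without I/R replicate 1) beside −0.0022 over all genes tested. None passed the adjusted test in limma and none had an unadjusted p under 0.05. The junctional adhesion molecule genes Jam2 and F11r differed by −0.45 ± 0.23 and −0.12 ± 0.13, and Esam, an adhesion molecule of endothelial junctions, by −0.34 ± 0.20. Podxl, whose sialomucin coats the vessel lumen, was the most abundant at 137 to 168 FPKM over the 6 hearts (0.05 ± 0.12). Nectin2 differed by −0.17 ± 0.20, and Cd34 by 0.31 ± 0.21 with I/R hearts (1.5 to 1.75 FPKM) all above Sham hearts (0.758 to 1.42).

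Of 16 genes of the leukocyte side 11 had a row and 8 were tested, 4 higher and 4 lower, with a median of −0.01 that changed sign with the setting. Selplg, the selectin ligand PSGL-1, was listed at 16 reads for Sham and 8 for I/R (−0.57 ± 0.42). Glg1, also called E-selectin ligand 1 and made by many cells, was at 63.8 to 73.9 FPKM in all hearts (−0.06 ± 0.10). The hyaluronan receptor gene Cd44 was at 0.517 to 1.20 FPKM in Sham and 1.14 to 3.14 in I/R (0.68 ± 0.30, limma, unadjusted p = 0.0572, adjusted p = 0.598), and the integrin gene Itgb7 differed by −0.47 ± 0.20 with I/R hearts all below Sham hearts, though the difference was 0.06 with its most abundant transcript alone. Itga4, the integrin chain that binds VCAM-1, differed by 0.04 ± 0.18, Fut4 by 0.31 ± 0.23, Itgax by −0.17 ± 0.23 and St3gal4 by 0.47 ± 0.50. Itgal, Itgb1 and Spn were below the filter, with at most 18 reads in either group, although Itgb1 is made by nearly all cells.

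The genes around COX-2 did not share the difference of Ptgs2. Of 21 genes of prostaglandin synthesis, transport and reception 12 had a row and 7 were tested, 4 higher and 3 lower, with a median of 0.02 that changed sign without Sham replicate 2 and without Sham replicate 3. Ptgs1, the constitutive cyclooxygenase, the prostacyclin synthase gene Ptgis and the inducible E synthase gene Ptges had no row. Among synthases, Ptges2 was at 12.5 to 14.8 FPKM in all hearts (0.12 ± 0.14), Ptges3 differed by 0.02 ± 0.27 and Hpgds by 0.20 ± 0.28. The thromboxane synthase gene Tbxas1 was at 5.18 FPKM in I/R replicate 1 and at 0.448 to 2.09 in the other 5 hearts (−0.32 ± 0.56). Hpgd, which inactivates prostaglandins, differed by −0.0033 ± 0.19, the prostacyclin receptor gene Ptgir by 0.31 ± 0.22 and the F receptor gene Ptgfr by −0.16 ± 0.24. Ptgds, Ptger1, Ptger2, Ptgdr2 and Tbxa2r were below the filter, with at most 21 reads in either group.

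In the adrenomedullin system the decoy receptor and a signalling subunit differed in opposite directions. The receptor itself, Calcrl, had no row. Ackr3, a scavenger receptor that takes up adrenomedullin and a chemokine, was at 94.8, 118 and 124 FPKM in Sham replicates 1, 2 and 3, against 191, 140 and 153 for the I/R hearts (0.51 ± 0.16, limma, unadjusted p = 0.0139, adjusted p = 0.471). As for Adm, I/R replicate 1 was the highest heart and the groups did not overlap. Ramp2, which turns Calcrl into the adrenomedullin receptor, was at 2.13, 1.92 and 2.19 FPKM for the Sham hearts and 0.343, 0.890 and 1.01 for the I/R hearts, from 21 and 7 reads over the groups (−0.84 ± 0.23, limma, unadjusted p = 0.00791, adjusted p = 0.431). Pam, which encodes the enzyme that amidates the peptide, differed by 0.60 ± 0.35 and Crcp by 0.41 ± 0.25. Of the 13 genes 8 had a row and 5 were tested, and Ramp1, Adm2 and Mme were below the filter. Their median difference was 0.41, but 0.22 without I/R replicate 1 and 0.23 without I/R replicate 2.

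Genes of NF-kB signalling and other genes of endothelial activation mostly stood higher in I/R. Of 28 NF-kB genes 12 had a row and 8 were tested, 7 higher (49.7% of all genes were) and 1 lower. Of these 8, 3 had an unadjusted p under 0.05 (37.5% where 4.23% of all genes were higher by this measure) and 0 passed the adjusted test in limma. Many central members, among them Nfkb1, Rela, Nfkbia and Tnfaip3, had no row. Nfkbie and Nfkbib, inhibitors of NF-kB, differed by 1.39 ± 0.27 and 0.71 ± 0.20 with I/R hearts all above Sham hearts. Of the cytokines that trigger endothelial activation, Il1a differed by 1.41 ± 0.55, Il1b by 0.73 ± 0.48 and Tnf by 0.66 ± 0.30, with overlapping hearts and 27 and 58 reads for Tnf. The abundant receptor gene Tlr4 differed by 0.14 ± 0.13. Their median difference was 0.69, but 0.45 without I/R replicate 2 and 0.10 with no filter on low values.

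Of 25 other genes of endothelial activation 10 had a row and 6 were tested, all 6 of them higher in I/R (49.7% of all genes were), of which 3 had an unadjusted p under 0.05 (4.23% of all genes had one and were higher) and 0 passed the adjusted test in limma. Irf1, a transcription factor induced by cytokines, differed by 1.47 ± 0.41, Il6 by 1.46 ± 0.60 and Klf4, a transcription factor that also responds to flow, by 0.61 ± 0.17. The membrane-bound chemokine gene Cx3cl1 was at 7.47 to 13.1 FPKM in Sham and 12 to 14.1 in I/R (0.45 ± 0.23). Angpt2, which endothelium stores and releases on activation, differed by 0.37 ± 0.22 and von Willebrand factor (Vwf), stored with it, by 0.0018 ± 0.31. F3, Thbd and Nos3 had no row. The median of 0.53 was 0.25 with no filter. These lists share cytokine genes with an inflammatory list already known to be higher in these hearts and are no independent support.

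Hypoxia-induced genes, to which Adm belongs, did not all stand with it. Of 20 genes 13 had a row and 11 were tested, 8 higher (49.7% of all genes were) and 3 lower. Their median was 0.22, but 0.15 without Sham replicate 1, 0.35 without Sham replicate 3, and 0.09 with a filter at 5 FPKM. Bhlhe40, a transcriptional repressor, differed by 0.87 ± 0.23 and Egln3, an oxygen sensor induced by hypoxia, by 0.51 ± 0.20. Both had an unadjusted p under 0.05 (limma, adjusted p = 0.420 and 0.565), as 2 of the 11, where 4.23% of all genes had one and were higher. Higd1a differed by 0.46 ± 0.20 and Slc2a1, the glucose transporter GLUT1, by 0.37 ± 0.29. The most abundant, the oxygen sensor gene Egln1, was at 443 to 529 FPKM in all hearts (−0.01 ± 0.10). Ddit4 was at 322 FPKM in Sham replicate 3 and at 122 to 216 in the other 5 (−0.21 ± 0.39), and Vegfa had no row.

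**Figure D4:**
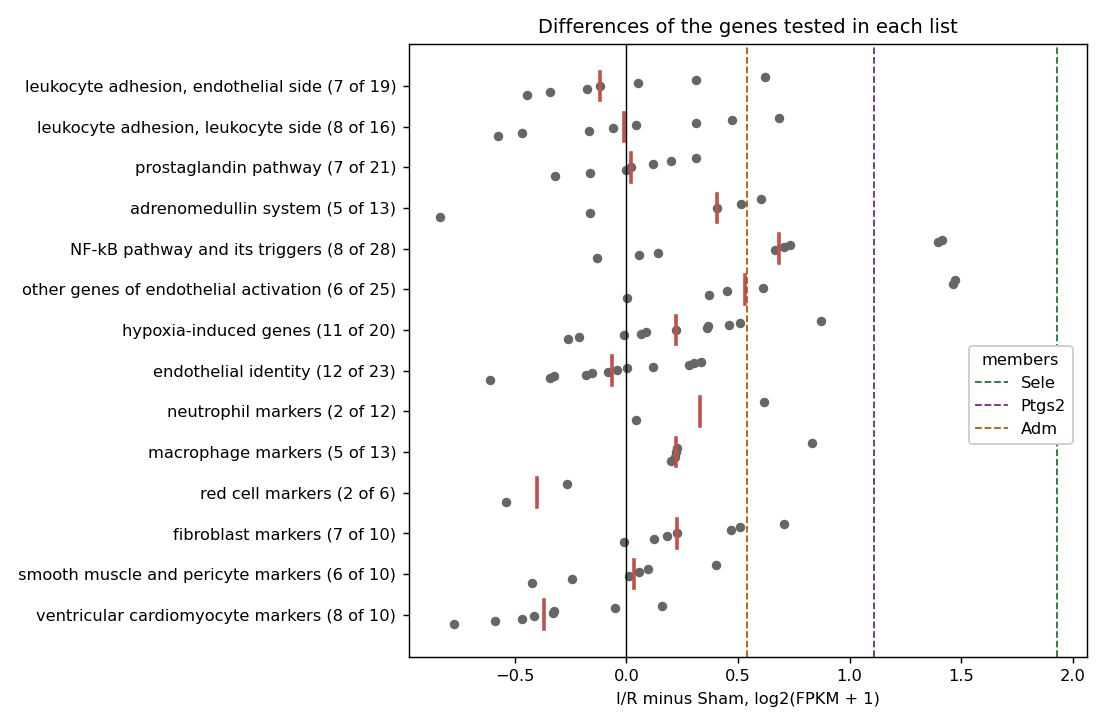
I/R minus Sham in log2(FPKM + 1) for each gene tested (points) by list, with the list's median as a red bar, the number of genes tested of those listed in brackets, and dashed lines at Sele (1.93), Ptgs2 (1.11) and Adm (0.54). The points of both adhesion lists and of the prostaglandin list lie on either side of 0, and no list gene reaches the line of Sele on this scale. Over the settings with all hearts the highest difference was 2.38 for Il1a and 2.20 for Nfkbie, against 2.12 for Sele.

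Markers of the endothelium itself gave no common direction. Of 23 identity genes 13 had a row and 12 were tested, 5 higher and 7 lower, with a median of −0.06 (−0.21 without Sham replicate 1 and −0.01 without Sham replicate 2). Pecam1 and Cdh5, the usual defining genes, had no row, and the water channel gene Aqp1 (791 to 960 FPKM), the receptor gene Kdr (91.3 to 141) and Ptprb (45.9 to 60.9), which encodes an endothelial phosphatase, were the best measured by reads. Kdr differed by 0.33 ± 0.15, Aqp1 by −0.08 ± 0.10, Ptprb by −0.18 ± 0.12 and Tie1 by −0.61 ± 0.21, with Ptprb and Tie1 lower in every I/R heart than in any Sham heart (2 of 12, where 6.57% of all genes were). The summed FPKM of the list was 1060 to 1250 in Sham and 1081 to 1180 in I/R. In whole hearts, fewer cells of a type and less RNA per cell cannot be told apart.

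Set beside the mean of these 12 genes in the same heart, Sele was at −1.51, −0.41 and −2.17 in Sham replicates 1, 2 and 3, against −0.01, 1.46 and 0.42 for the I/R hearts (log2 differences). The I/R hearts stayed above the Sham hearts, by 1.99 between the means (exact permutation test, two-sided, p = 0.1, the smallest that 3 against 3 hearts allow, and 0.2 with the median of the identity genes in place of their mean). Adm was at −0.55, −0.59 and −0.57 for the Sham hearts and 0.13, −0.00055 and −0.04 for the I/R hearts, a difference of 0.60 (exact permutation test, p = 0.1). Ptgs2 differed by 1.17 with overlapping hearts (exact permutation test, p = 0.3). The mean of the 12 genes itself was 3.92 to 4.15 in Sham and 3.93 to 4.07 in I/R (exact permutation test, p = 0.6). It weighted the 12 genes equally, and Tie1, Ly6c1, Fabp4, Eng and Emcn had means of only 1.96 to 2.65 FPKM over the hearts. Their listed transcripts may not stand for the whole genes, so this mean is a limited measure of endothelial RNA.

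The listed transcripts of neutrophil, lymphocyte, platelet and red cell markers had few reads, and the summed markers of some resident cells did not overlap between the groups. How much of these genes the listed transcripts cover is not known, so few reads do not show that the cells were absent. Of 12 neutrophil markers 5 had a row and together had 7 to 26 recovered reads per heart. Of these, S100a8 was listed above 0 in Sham replicate 2 alone (0.427 FPKM), which does not fix its number of reads. The 5 of 12 lymphocyte markers listed had 14 to 36 reads per heart, the 2 of 8 platelet markers 2 to 15 and the 2 of 6 red cell markers 6 to 44. Of 6 monocyte markers 2 had a row, Ccr2 with 5 reads for Sham and 1 for I/R and Ace, which endothelium also makes, at 11.6 to 14.4 and 11.9 to 17.7 FPKM. Summed macrophage markers (5 of 13 listed) were at 921 to 1104 FPKM in Sham and 1144 to 1238 in I/R, fibroblast markers (9 of 10) at 360.0 to 443 and 471 to 515, and ventricular cardiomyocyte markers (8 of 10) at 611 to 687 and 487 to 544. The sums were not tested. Most of the macrophage sum was Lyz2, at 571 to 696 FPKM in Sham and 671 to 782 in I/R, with overlapping hearts. Cd14, the lipopolysaccharide co-receptor of macrophages, was at 26.6 to 30.9 FPKM in Sham and 35 to 63.9 in I/R, the collagen gene Col1a1 differed by 0.51 ± 0.14 and the calcium pump regulator gene Pln by −0.77 ± 0.17. The cardiomyocyte genes Ttn and Ryr2 differed by −0.05 ± 0.11 and 0.16 ± 0.18, and the fibroblast gene Pdgfra by −0.01 ± 0.29. Of the genes tested, 5 of 5 macrophage, 6 of 7 fibroblast and 1 of 8 cardiomyocyte markers were higher in I/R (49.7% of all genes were). Hearts did not overlap for 2 macrophage and 2 fibroblast markers (higher, as for 7.1% of all genes) and 2 cardiomyocyte markers (lower, 6.57%). Macrophages and fibroblasts are known to make Ptgs2, and the part of these shifts in the values of Ptgs2 and Adm was not tested.

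Genes with the most similar pattern over the 6 hearts differed between the 3 leading genes. Similarity was Pearson's r of log2(FPKM + 1) over the 6 hearts, given as a description, among the 2118 protein-coding genes whose mean reached 5 FPKM. An r over 0.95 was reached by 22 genes for Sele, 17 for Ptgs2 and 11 for Adm. The genes named here were picked by this r. That they share the order of hearts and the direction of the difference follows from the choice and is no support. Nearest to Sele were Ptx3, which encodes the secreted pattern recognition protein pentraxin 3 (r = 0.981), the ubiquitin ligase gene Siah2 (0.976), Mex3c (0.973), the chemokine gene Ccl4 (0.973) and Gramd3 (0.972). Ptx3 was at 0.745, 2.51 and 0.364 FPKM in Sham replicates 1, 2 and 3, against 6.03, 18.1 and 4.91 for the I/R hearts, a difference of 2.19 ± 0.54 (limma, unadjusted p = 0.00482, adjusted p = 0.388). As for Sele, replicate 2 was the highest heart of each group. Gramd3 followed the same order over a narrow range, 36.7 to 43.1 FPKM.

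Nearest to Ptgs2 were Jun (r = 0.988), a part of the transcription factor AP-1, Slc39a1 (0.987), Ltn1 (0.982), Maff (0.976) and Klf16 (0.976). Jun was at 388, 640.1 and 532 FPKM in Sham replicates 1, 2 and 3, against 512, 1117 and 1129 for the I/R hearts, with I/R replicate 1 within the Sham hearts as for Ptgs2. Nearest to Adm were Pnrc1 (r = 0.984), the autophagy gene Map1lc3b (0.983), Trim8 (0.979), Insig1 (0.974), which restrains sterol synthesis, and Lmtk2 (0.967). Insig1 was at 24.1, 23.1 and 30.4 FPKM for the Sham hearts, against 48.5, 38.8 and 40.7 for the I/R hearts, highest in I/R replicate 1 as for Adm (0.70 ± 0.15, limma, unadjusted p = 0.00270, adjusted p = 0.386). The 3 sets of 5 genes had no gene in common.

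The plot of the 3 genes under each setting shows how far the hearts and the processing move them. Over the settings that kept all hearts, Sele ranged from 1.93 to 2.12, Ptgs2 from 1.10 to 1.37 and Adm from 0.54 to 0.58. With 1 heart left out, Sele ranged from 1.54 to 2.42, Ptgs2 from 0.68 to 1.68 and Adm from 0.45 to 0.59.

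**Figure D5:**
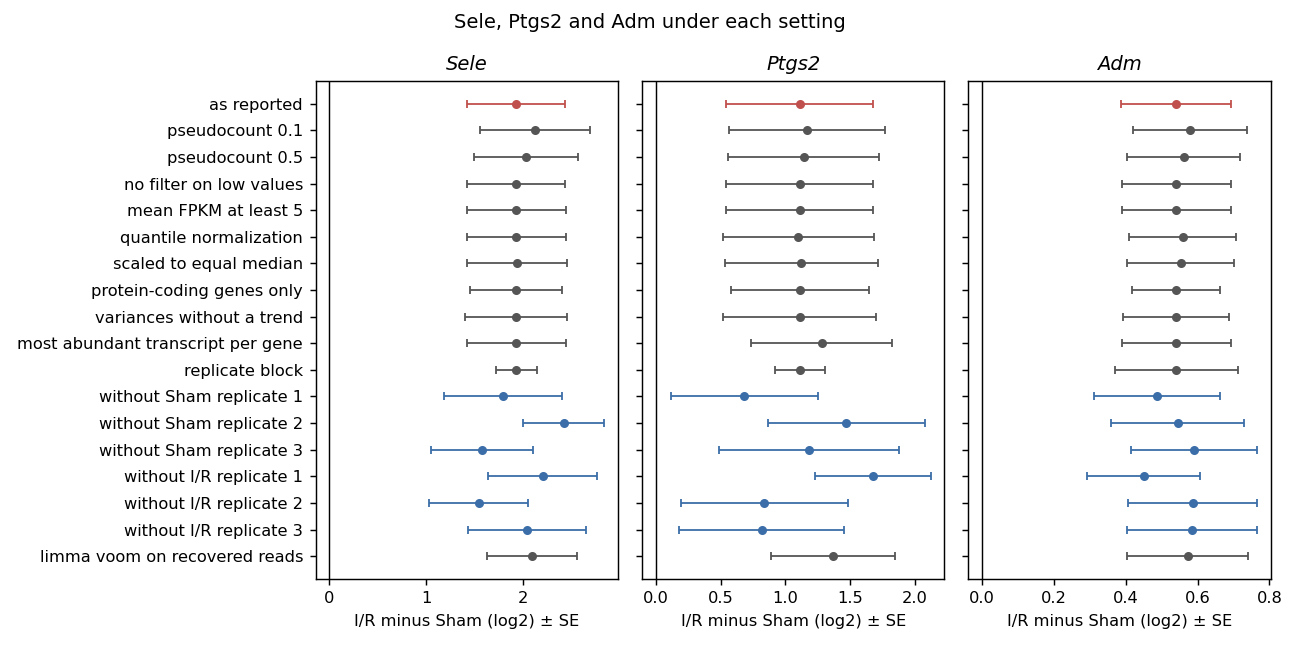
I/R minus Sham in log2 units ± SE (horizontal axes) for Sele, Ptgs2 and Adm as reported (red), under the other settings with all hearts (grey) and without each heart in turn (blue). All values lie above 0, and leaving out a heart moves Ptgs2 most in proportion, from 0.68 to 1.68.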

How the data were processed

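Per the labels' protocols, 6 libraries were made from poly(A) RNA (NEBNext Ultra II). The authors deposited FPKM for each transcript. Named in the submitters' processing notes, with no role, are HISAT2 (2.1.0), HTSeq (0.10.0), fastp (0.23.0), bcl2fastq (2.19.1.403) and the builds mm10, GRCm38 and GRCm39. Not given in the sources used here were annotation and strand setting. Of 21198 rows, 40 repeats were dropped. Of 8610 genes, 95.3% overlapped their RefSeq GRCm38.p6 span by at least 50%, and coordinates are given as GRCm38. RefSeq promoter windows were found for 5 of the 6 members.

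FPKM were summed per gene. Reads were recovered as whole multiples of 1 read (within 0.001) in 11744 of the 11745 mRNA rows and all 9413 lncRNA rows. The shortest length that gave whole reads was taken, so counts of rows with few reads can be too low. The 5041 protein-coding genes and 7073 lncRNAs whose mean reached 0.5 FPKM were tested on log2(FPKM + 1) with limma (version 3.58.1, R 4.3.3; group alone as factor, two-sided, variances with a trend, p adjusted by Benjamini-Hochberg over all 12114 genes). Python 3.11.15, pandas 2.3.3, numpy 2.4.6 and matplotlib 3.10.9 made the tables and figures. The fit and the recovery of reads were tested on simulated data. The named genes were the members, the genes of the adhesion, prostaglandin and adrenomedullin lists, of each other list the 4 with the smallest p and the 2 most abundant, and the 5 nearest in pattern, of which not all are printed. An item that this rule named is not reported here. Other genes, and the lncRNAs at the loci, were named after their values were seen. Members and lists were chosen with earlier results of these data known. The fit was repeated with other pseudocounts, filters, scalings and variance models, with 1 transcript per gene, with voom on reads, with a replicate block and without each heart in turn.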

Additional observations from a re-analysis of the deposited data

How the results depend on the processing

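Under every alternative run, Sele, Ptgs2, Adm and Vcam1 kept their direction and stayed above an adjusted p of 0.05 (limma, lowest 0.214, 0.335, 0.303 and 0.545), and 0 genes of the whole table passed in any. At an unadjusted p under 0.05 the count was 808 to 1222, or 455 and 640 where fewer genes were tested (protein-coding genes alone, and a filter at 5 FPKM). Vcam1 had no value with a filter at 5 FPKM. Beside the endothelial genes, the 8 alternatives gave 1.57 to 2.46 for Sele, 0.80 to 1.78 for Ptgs2 and 0.40 to 0.66 for Adm. Of 269 list medians recomputed, 248 stayed within the spread between hearts and 21 moved beyond it.

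Hearts with the same replicate number deviated together with correlations of 0.214, 0.0581 and 0.0792 over 6624 genes. Between different numbers, Sham replicate 2 and I/R replicate 3 had 0.152, and the others lay below 0 (−0.224 to −0.0245). Not every heart was thus closest to its own number, and the numbers were not taken as pairs. Whether the hearts were paired is not known. With a replicate block the difference was 1.93 ± 0.21 for Sele, 1.11 ± 0.19 for Ptgs2, 0.54 ± 0.17 for Adm and 0.62 ± 0.26 for Vcam1, and the count past the adjusted test stayed at 0 (limma, 1125 genes at an unadjusted p under 0.05). The limma adjusted p was 0.335 for Sele, 0.335 for Ptgs2, 0.465 for Adm and 0.545 for Vcam1. For Ptgs2 the unadjusted limma p was 0.0025 with the block (adjusted p = 0.335) and 0.0921 without it (adjusted p = 0.648). With the block, Sele, Ptgs2 and Adm were thus under 0.05 unadjusted, and without it Sele and Adm.

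Vcam1, Ramp2, Tnf and most lncRNAs at the loci rest on fewer than 100 reads per group, which limits what their values can show.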

Other observations

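Many activation genes had their highest value in the same heart of a group. Of the 14 tested genes in the NF-kB list and the list of other endothelial activation genes, 10 (71.4%) had their highest Sham value in Sham replicate 2, where 35.6% of all 5041 protein-coding genes tested did. Among the I/R hearts 8 of the 14 (57.1%) were highest in I/R replicate 2, against 27.2% of all protein-coding genes. Sele and Vcam1 were highest in replicate 2 of both groups. For the 12 endothelial identity genes the shares were 41.7% in Sham replicate 2 and 16.7% in I/R replicate 2. These sets were compared after the values were seen and the difference between the shares was not tested.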
